A study of Homo sapiens with 6 samples.

Results

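A set of 10 named genes of the centriolar satellites was followed in the RNA of RPE1 cells depleted of OFD1: OFD1 itself, PCM1, CEP290, BBS4, CEP131, SSX2IP, CEP72, MIB1, CCDC14 and KIAA0753. They were chosen by gene symbol, for what is known of their proteins, when earlier results of these data were known. Each symbol matched 1 row of the deposited gene table outside the alternative contigs. All 10 passed the filter on low values (a 6-sample mean of 1 FPKM or more), as did 12025 genes in all. OFD1 and CEP72 passed it only through their control values, with means of 0.996 and 0.731 FPKM in depleted cells. FPKM is the fragment count of a gene after division by transcript length and by the depth of the sample.

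RPE1 cells derive from human retinal pigment epithelium and were made immortal with telomerase (hTERT). Every sample came from RPE1 cells that carry a lentiviral, Tet-On controlled shRNA (short hairpin RNA) directed at OFD1, expressed when doxycycline is added. The control group (genotype WT in the labels, n = 3) received no doxycycline, and the OFD1-depleted group (genotype OFD1 knockdown, n = 3) received 200 ng/mL doxycycline, with 72 h given for both. Infected cells were selected with an antibiotic, and whether the line is 1 clone is not given in the sources used here. No sample had doxycycline without the OFD1 shRNA, so doxycycline and the loss of OFD1 cannot be told apart. The study calls its replicates biological, and the labels do not say whether they were separate cultures, so the p-values measure the spread between these samples.

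Centriolar satellites are membraneless granules that cluster around the centrosome and move along microtubules with dynein. PCM1 is their scaffold, and the granules store and deliver proteins for centriole duplication, microtubule anchoring and primary cilium assembly. OFD1 resides both in satellites and at the distal end of centrioles, where it controls centriole length and the appendages that dock the cilium. Mutations of several of these genes, OFD1, CEP290 and BBS4 among them, cause ciliopathies that can include retinal degeneration.

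The low values of single-exon genes put the depth at about 37600000 to 44100000 fragments per sample. The sum of FPKM lay at 408302 to 414547 in control and 433262 to 493510 in OFD1-depleted samples, highest in OFD1-depleted replicate 2. Mitochondrially encoded genes took 8.66% to 13.8% of that sum in control and 15.6% to 19.3% in OFD1-depleted samples. The labels give the tissue as retina and the cells as RPE1. Of 12 retinal pigment epithelium markers, 4 had a mean of at least 1 FPKM in control and 5 in OFD1-depleted samples, where the added gene, BEST1, reached 4.33 FPKM in replicate 2 and was near 0 in the other samples. KRT8, KRT18, MITF and OTX2 were expressed in every sample, while RPE65, RLBP1, LRAT, TYR and TYRP1 were near 0. The summed level of that list was 263 to 280 FPKM in control cells and 304 to 421 FPKM after depletion, nearly all of it from the keratins KRT8 and KRT18, while SERPINF1 had a mean of 0.826 FPKM in control and 0.277 FPKM in depleted cells. The photoreceptor markers CRX, SAG, PDE6B and RCVRN were at 0 in all samples, and NRL, ARR3 and GNAT1 reached at most 0.286, 0.141 and 0.00894 FPKM in any sample. The photoreceptor list summed to 0.0978 to 0.199 FPKM in control cells and 0.209 to 0.427 FPKM after depletion. Of 5 retinal glia markers, GLUL alone reached 1 FPKM, and the list summed to 10.8 to 12.2 FPKM in control cells and 4.76 to 7.41 FPKM after depletion. The part of these marker levels and of the mitochondrial share in the results was not tested.

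OFD1 (ENSG00000046651, GRCh38 chrX:13734745-13769357, plus strand) is the target of the shRNA. It had 3.34, 3.62 and 3.44 FPKM in control replicates 1, 2 and 3 and 0.795, 0.763 and 1.43 FPKM in OFD1-depleted replicates 1, 2 and 3. The groups were far apart, and OFD1-depleted replicate 3 kept the most OFD1 RNA. The mean fell from 3.47 ± 0.144 to 0.996 ± 0.375 FPKM (SD, n = 3 each), which left 28.7% of control. The log2 fold change on the log2(FPKM + 0.1) scale was -1.75 (SE 0.255), with an adjusted p of 0.00085 from limma with Benjamini-Hochberg adjustment over all tested genes. Ordered from the largest fall, OFD1 ranked 85 of the 12025 tested genes. The two-sided exact permutation test of its FPKM gave p = 0.1, the smallest that 3 samples against 3 allow. A fall of OFD1 is what the shRNA was designed to give, so it checks the labels. In bulk RNA, fewer cells with a transcript and less of it per cell cannot be told apart.

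No gene of the table overlaps OFD1. Its start lies 110 bases from that of TRAPPC2, a subunit of the trafficking complex TRAPP that is transcribed the other way and was looked at after its values were seen. TRAPPC2 had 4.66, 4.06 and 3.93 FPKM in control and 7.71, 4.77 and 6.0 FPKM in OFD1-depleted replicates. Its groups did not overlap, in the direction opposite to OFD1, with a log2 fold change of 0.51 (95% interval 0.10 to 0.92) that missed the threshold in limma (adjusted p = 0.0842). OFD1P17, a copy of OFD1 on chromosome 5 that could share its reads, reached at most 0.0412 FPKM in any sample.

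Promoter windows of 300 bases, from 250 before to 50 after the RefSeq start on GRCh38.p14, were at hand for 9 of the 10 genes. The windows of 4 genes are printed from 5′ to 3′ on the strand of the gene. OFD1 and CEP290 are shown because each window also holds the start of an expressed gene transcribed the other way, and CEP131 and CEP72 because both fell with OFD1. The OFD1 window is chrX:13734498-13734797 (plus strand), with the RefSeq start 3 bases from that of the table. The CEP290 window is chr12:88142039-88142338 (minus strand), 11 bases off. The CEP131 window is chr17:81222916-81223215 (minus strand), 34 bases off, and the CEP72 window is chr5:612090-612389 (plus strand), with the same start. Capitals mark matches, on either strand, to GTTGCC, a part of the X-box (OFD1), to the CHR word TTTGAA (CEP290 and CEP72) and to CCAAT (CEP131).
OFD1: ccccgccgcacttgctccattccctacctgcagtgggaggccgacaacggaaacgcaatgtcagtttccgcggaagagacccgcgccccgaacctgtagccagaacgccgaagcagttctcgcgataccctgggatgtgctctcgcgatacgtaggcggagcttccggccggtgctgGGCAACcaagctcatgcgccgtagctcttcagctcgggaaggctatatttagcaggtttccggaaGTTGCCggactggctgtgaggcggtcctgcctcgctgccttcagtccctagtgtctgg
CEP290: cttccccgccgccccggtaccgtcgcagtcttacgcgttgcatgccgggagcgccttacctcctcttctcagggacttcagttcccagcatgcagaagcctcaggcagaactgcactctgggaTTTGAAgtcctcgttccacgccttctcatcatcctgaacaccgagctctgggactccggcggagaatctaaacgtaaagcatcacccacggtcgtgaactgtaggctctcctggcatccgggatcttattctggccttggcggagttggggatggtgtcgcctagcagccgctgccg
CEP131: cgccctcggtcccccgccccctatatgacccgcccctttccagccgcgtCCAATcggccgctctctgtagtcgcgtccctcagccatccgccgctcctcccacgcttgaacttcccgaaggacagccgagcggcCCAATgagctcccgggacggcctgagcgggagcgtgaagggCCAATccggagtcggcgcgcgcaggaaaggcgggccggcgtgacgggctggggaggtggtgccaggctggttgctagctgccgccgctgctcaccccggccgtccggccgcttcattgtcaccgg
CEP72: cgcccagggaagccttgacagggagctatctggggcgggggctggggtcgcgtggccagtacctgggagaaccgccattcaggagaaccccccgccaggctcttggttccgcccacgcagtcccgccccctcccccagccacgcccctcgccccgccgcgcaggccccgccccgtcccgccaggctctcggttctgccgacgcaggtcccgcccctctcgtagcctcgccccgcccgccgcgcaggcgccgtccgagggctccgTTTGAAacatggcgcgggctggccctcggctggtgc

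The X-box is bound by RFX factors, which act on many ciliary genes. The word GTTGCC, a part of the X-box and not the whole motif, was in the windows of OFD1 (2 matches), MIB1 (2 matches) and KIAA0753 (1 match). It was in 12.2% of the 35116 RefSeq promoters searched. CHR and CCAAT are words found in promoters of cell cycle genes. CHR was in the windows of CEP290 and CEP72 and in 15.2% of all promoters. CCAAT was in those of SSX2IP (2 matches), CEP131 (3 matches), CCDC14 (1 match) and MIB1 (1 match), and in 34.6% of all promoters. Sites of E2F, a factor of the cell cycle, were searched as TTCCCGC, as the word TTGGCGC, as the word TTCGCGC and as the word TTGCCGC. The last overlaps GTTGCC. At least 1 of the E2F words was in the MIB1 window and in 13.0% of all promoters. Both strands were searched for every word. No word was shared by all of OFD1, CEP131, SSX2IP and CEP72, and the matches describe the windows without showing a bound site. G and C made up 62.0% of the OFD1 window, 59.7% of that of CEP290, 71.3% of that of CEP131 and 75.3% of that of CEP72, beside a median of 64.0% over the 9 windows and 58.7% over all promoters. The RefSeq starts of SSX2IP and MIB1 lie 342 and 35835 bases from the starts in the table.

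**Figure D1:**
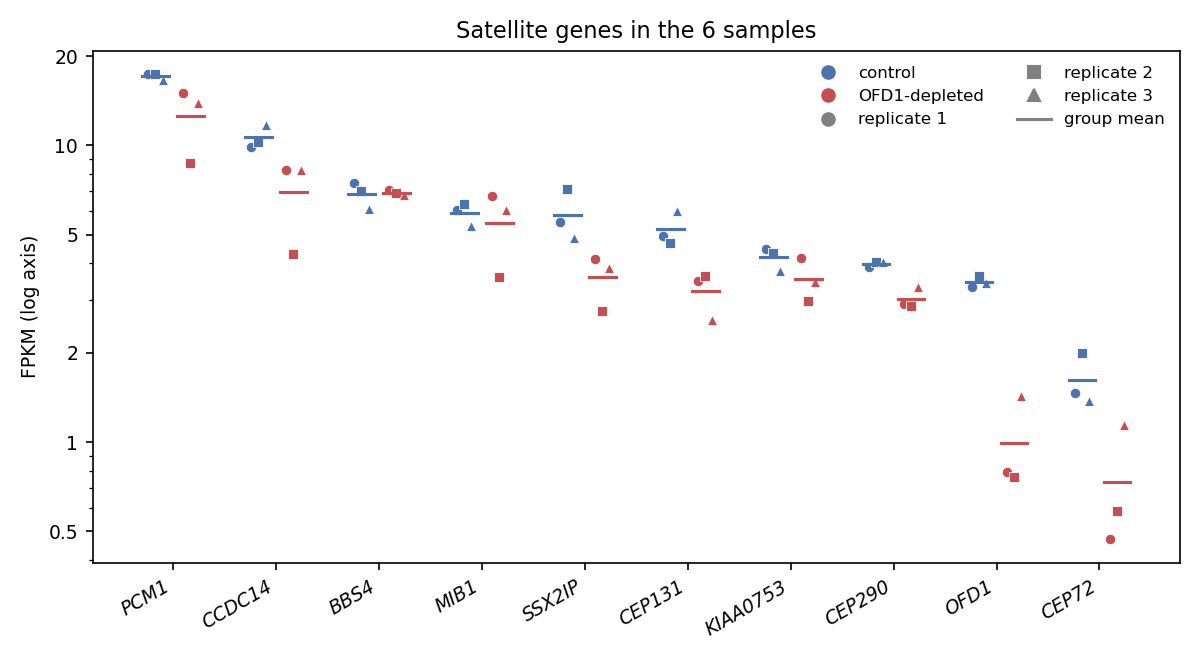
FPKM (log axis) of the 10 satellite genes in each control (blue) and OFD1-depleted (red) sample, ordered by control mean, with a horizontal line at each group mean and the replicate number given by the shape. OFD1 falls from 3.47 to 0.996 FPKM, the 2 groups do not overlap in 7 genes, and they overlap in BBS4, MIB1 and KIAA0753.

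Of the 10 satellite genes, 4 were called lower in OFD1-depleted cells (OFD1, CEP131, SSX2IP and CEP72) and 0 higher, at an adjusted p under 0.05 in limma. Over all tested genes, 11.9% were called lower and 5.07% higher. Without OFD1, which the shRNA targets, 3 of 9 were called lower. Of those, CEP72 passed the filter only through its control values. The groups did not overlap in 7 of the 10, all lower, beside 22.3% of all tested genes lower and 13.8% higher. At an unadjusted p under 0.05, 7 were lower and 0 higher, beside 19.1% and 11.5% of all tested genes. With OFD1 left out, 6 of 9 were lower by either measure. The median log2 fold change of the 10 was -0.57, and -0.48 without OFD1, beside -0.03 over all tested genes, of which the 10th and 90th percentiles were -0.67 and 0.41. The count of 4 changed with any 1 sample left out. It was 1, OFD1, without control replicate 1, 2 or 3, and without OFD1-depleted replicate 1, 2 or 3 it was 3, 2 and 2. The count over all tested genes, 1429 lower, changed too. It was 904, 1020 and 867 without control replicate 1, 2 or 3, and 1309, 1741 and 1051 without OFD1-depleted replicate 1, 2 or 3.

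**Figure D2:**
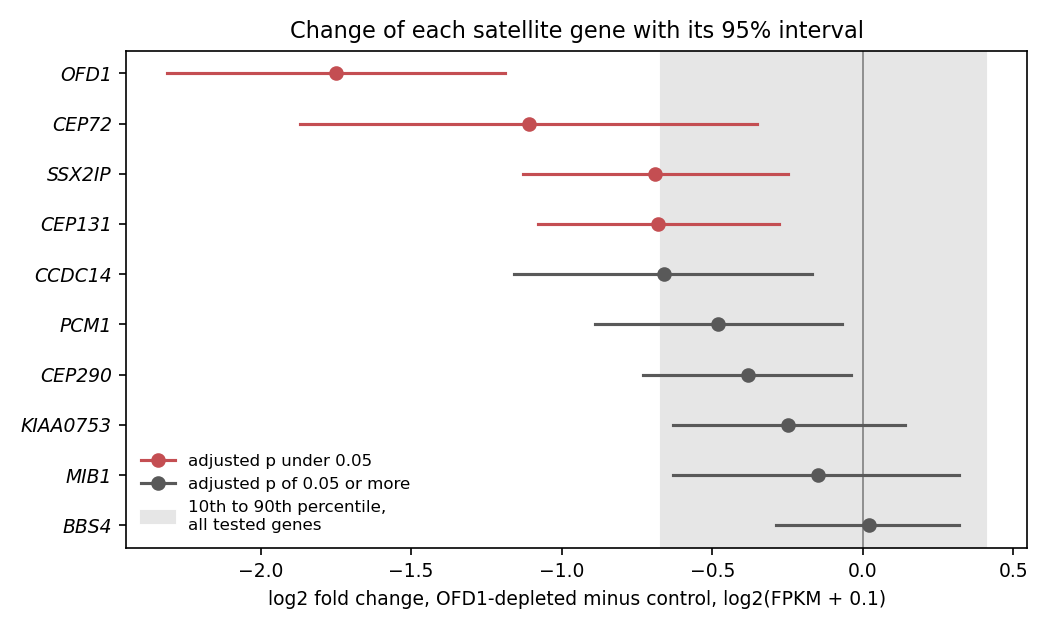
Log2 fold change, OFD1-depleted minus control on the log2(FPKM + 0.1) scale, of each satellite gene with its 95% limma interval, in red where the adjusted p was under 0.05. The grey band runs from the 10th to the 90th percentile of all tested genes (-0.67 to 0.41), and the intervals of BBS4, MIB1 and KIAA0753 include 0.

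PCM1 (ENSG00000078674, chr8:17922840-18027975, plus strand) encodes the scaffold on which the granules form. It had 17.4, 17.4 and 16.6 FPKM in control and 15.0, 8.75 and 13.9 FPKM in OFD1-depleted replicates. Every OFD1-depleted value lay under every control value, and the gap was widest in replicate 2. The mean was 17.1 ± 0.467 FPKM without doxycycline and 12.6 ± 3.35 FPKM with it (SD, n = 3 each), with a log2 fold change of -0.48 (95% interval -0.89 to -0.07) that did not pass the threshold (limma adjusted p = 0.105). Without OFD1-depleted replicate 2 the log2 fold change of PCM1 was -0.24.

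CEP131 (ENSG00000141577, chr17:81189593-81222999, minus strand) encodes a PCM1-binding satellite protein with roles in ciliogenesis. It had 4.94, 4.70 and 6.0 FPKM in control and 3.50, 3.64 and 2.58 FPKM in OFD1-depleted replicates. The groups did not overlap, and here OFD1-depleted replicate 3 was the lowest. AC027601.2, inside CEP131 on the other strand, was under 1 FPKM in every sample. CEP131 fell from 5.21 ± 0.691 to 3.24 ± 0.577 FPKM (SD, n = 3 each), or to 62.1% of control, with a log2 fold change of -0.68 (SE 0.183, limma adjusted p = 0.0273). The call was lost without control replicate 1, 2 or 3, without OFD1-depleted replicate 3, with no filter on low values and under quantile normalization, where the adjusted p lay between 0.0531 and 0.143. Over every alternative the adjusted p of CEP131 ranged from 0.00291 to 0.143 and the log2 fold change from -0.82 to -0.53.

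SSX2IP (ENSG00000117155, chr1:84643706-84690803, minus strand) encodes a satellite protein that helps to anchor microtubules at the centrosome. It had 5.52, 7.13 and 4.89 FPKM in control and 4.13, 2.76 and 3.87 FPKM in OFD1-depleted replicates. Replicate 2 was the highest control and the lowest OFD1-depleted value, and the groups did not overlap. SSX2IP fell from 5.84 ± 1.15 to 3.59 ± 0.726 FPKM (SD, n = 3 each), or to 61.4% of control, with a log2 fold change of -0.69 (SE 0.20, limma adjusted p = 0.0359). It stayed past the threshold in 9 of 17 alternatives, with an adjusted p from 0.0209 to 0.159. Among the samples left out in turn, SSX2IP kept its call without OFD1-depleted replicate 1 and lost it without any other.

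CEP72 (ENSG00000112877, chr5:612340-667168, plus strand) encodes a satellite protein that binds PCM1 and acts in the recruitment of CEP290. It had 1.46, 2.0 and 1.38 FPKM in control and 0.470, 0.585 and 1.14 FPKM in OFD1-depleted replicates. Replicate 3, which kept the most OFD1, also kept the most CEP72, and the groups did not overlap. CEP72 fell from 1.61 ± 0.340 to 0.731 ± 0.357 FPKM (SD, n = 3 each), or to 45.3% of control. Only its control values brought CEP72 past the filter on low values, which limits what its test can show. CEP72 had a log2 fold change of -1.11 (SE 0.345) at an adjusted p of 0.0488 in limma, close to the threshold. It was past the threshold in 7 of 17 alternatives, with an adjusted p from 0.0205 to 0.188, and among the samples left out in turn it kept its call without OFD1-depleted replicate 3 and lost it without any other. CEP72 overlaps TPPP on the other strand, which was under 1 FPKM. The 95% interval of OFD1 (-2.31 to -1.19) lay below those of the other satellite genes except CEP72 (-1.87 to -0.35), and differences between genes were not tested.

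CEP290 (ENSG00000198707, chr12:88049016-88142099, minus strand) encodes a satellite protein that also forms links between the microtubules and the membrane of the ciliary transition zone. It had 3.89, 4.04 and 4.03 FPKM in control and 2.92, 2.87 and 3.34 FPKM in OFD1-depleted replicates. The control values were tight and lay above every OFD1-depleted value. The mean was 3.99 ± 0.0836 FPKM without doxycycline and 3.04 ± 0.257 FPKM with it (SD, n = 3 each), with a log2 fold change of -0.38 (95% interval -0.73 to -0.04, limma adjusted p = 0.124). CEP290 did not pass the threshold. C12orf29, which overlaps the end of CEP290 on the other strand, had a mean of 8.04 FPKM in control cells and 8.72 FPKM after depletion (limma adjusted p = 0.608). The strand setting of the counting is not given in the sources used here, so reads in the overlap could count for either gene. TMTC3, an O-mannosyltransferase gene whose start lies 197 bases from that of CEP290 on the other strand, was looked at after its values were seen. It had 7.87, 9.13 and 7.94 FPKM in control and 5.65, 4.0 and 5.27 FPKM in OFD1-depleted replicates, and fell (log2 fold change -0.74, limma adjusted p = 0.01).

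CCDC14 (ENSG00000175455, chr3:123897305-123961408, minus strand) and KIAA0753 (ENSG00000198920, chr17:6578147-6640711, minus strand) encode satellite proteins that act on centriole duplication, and KIAA0753 binds OFD1. CCDC14 had 9.90, 10.3 and 11.7 FPKM in control and 8.29, 4.31 and 8.23 FPKM in OFD1-depleted replicates. The groups did not overlap, but OFD1-depleted replicate 2 was far under the other two. The mean of CCDC14 was 10.6 ± 0.971 FPKM without doxycycline and 6.94 ± 2.28 FPKM with it (SD, n = 3 each), with a log2 fold change of -0.66 (95% interval -1.16 to -0.17, limma adjusted p = 0.0691). With the replicate number as a block the adjusted p of CCDC14 was 0.0192 and with array weights 0.0481, in a range of 0.0192 to 0.287 over its 18 alternatives, and without OFD1-depleted replicate 2 its log2 fold change was -0.36. KIAA0753 had 4.48, 4.32 and 3.78 FPKM in control and 4.16, 2.98 and 3.47 FPKM in OFD1-depleted replicates. The groups of KIAA0753 overlapped, with a log2 fold change of -0.25 (95% interval -0.63 to 0.14, limma adjusted p = 0.374). It was -0.13 without OFD1-depleted replicate 2 and -0.12 under quantile normalization. AC004706.3, which lies inside KIAA0753 on the same strand, reached at most 0.179 FPKM. TXNDC17, which starts 274 bases from KIAA0753 on the other strand and was also looked at after its values were seen, had a log2 difference of 0.19 with an adjusted p of 0.516 in limma.

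MIB1 (ENSG00000101752, chr18:21704957-21870953, plus strand) encodes a ubiquitin ligase known from Notch signalling that resides in satellites and modifies PCM1 and CEP131. It had 6.07, 6.33 and 5.33 FPKM in control and 6.75, 3.61 and 6.05 FPKM in OFD1-depleted replicates. OFD1-depleted replicate 1 was above every control and replicate 2 under every control, so the groups overlapped. The log2 fold change of MIB1 was -0.15 (95% interval -0.63 to 0.32, limma adjusted p = 0.674), and 0.11 without OFD1-depleted replicate 2. ABHD3, which starts 177 bases from MIB1 on the other strand, had a mean of 0.798 FPKM in control and 0.514 FPKM in depleted cells, too low to be tested. The other genes that overlap MIB1, CEP290 or KIAA0753 were under 1 FPKM in every sample.

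BBS4 (ENSG00000140463, chr15:72686179-72738475, plus strand) encodes a subunit of the BBSome, a carrier of ciliary membrane proteins, that also binds PCM1. It had 7.47, 7.02 and 6.09 FPKM in control and 7.06, 6.90 and 6.78 FPKM in OFD1-depleted replicates. The OFD1-depleted values lay inside the control range. HIGD2B, which overlaps the start of BBS4 on the other strand, reached at most 0.129 FPKM. The mean was 6.86 ± 0.70 FPKM without doxycycline and 6.92 ± 0.143 FPKM with it (SD, n = 3 each), and the log2 fold change was 0.02 (limma adjusted p = 0.952). Its 95% interval of -0.29 to 0.32 leaves room for changes of that size in either direction, and the sign of the BBS4 value turned with the scaling.

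FPKM is per transcript length, so levels can be set in order across genes. In control cells PCM1 (mean 17.1 FPKM) and CCDC14 (10.6 FPKM) were the most abundant, each with a range above the next gene. BBS4 (6.86 FPKM), MIB1 (5.91 FPKM), SSX2IP (5.84 FPKM) and CEP131 (5.21 FPKM) followed, with ranges that overlapped from each to the next. KIAA0753 (4.19 FPKM) and CEP290 (3.99 FPKM) overlapped as well, and OFD1 (3.47 FPKM) and CEP72 (1.61 FPKM) were the lowest. OFD1 was therefore among the less abundant of these transcripts before depletion. The levels of the 10 genes summed to 64.5, 66.8 and 63.3 FPKM in control and 53.1, 37.2 and 50.8 FPKM in OFD1-depleted replicates. PCM1 made up 26.1% to 27.0% of that sum in control and 23.6% to 28.3% in OFD1-depleted samples.

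The OFD1-depleted replicates differed among themselves. Replicate 2 held the lowest of the OFD1-depleted values in 7 of the 10 genes, replicate 3 in 2 and replicate 1 in 1, while over all tested genes the shares were 48.2%, 38.9% and 12.9%. Against the control mean, the median log2 difference of the 10 genes was -0.40, -0.83 and -0.33 in replicates 1, 2 and 3, and that of all tested genes was 0.04, -0.09 and -0.08. Replicate 2 lay furthest below the other OFD1-depleted replicates in CCDC14 (-1.28), MIB1 (-0.69), PCM1 (-0.96) and SSX2IP (-1.04). OFD1 did not single out that replicate, with -1.99, -2.05 and -1.22 in replicates 1, 2 and 3. CEP72, with -1.57, -1.30 and -0.45, had its smallest difference in replicate 3 as OFD1 did, and CEP131, with -0.55, -0.50 and -0.98, had its largest there. Without OFD1-depleted replicate 2, OFD1 and CEP131 were the genes called lower, and 1741 of all tested genes were called lower and 1077 higher, against 1429 and 610 with it.

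**Figure D3:**
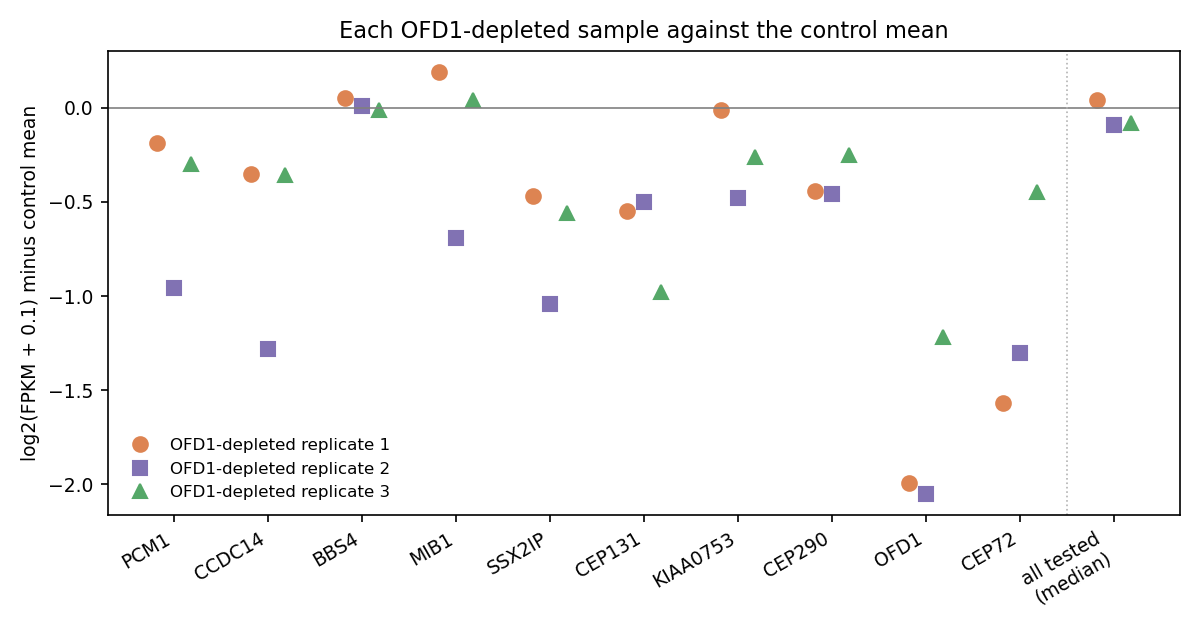
Log2(FPKM + 0.1) of each OFD1-depleted replicate less the control mean, for the 10 satellite genes and, at the right, the median of all tested genes. Replicate 2 (squares) is the lowest in 7 of the 10 genes, with -1.28 in CCDC14 and -0.96 in PCM1, and replicate 3 (triangles) has the smallest difference in OFD1 and CEP72.

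Other satellite components were counted from a list of 24 genes, of which 20 were tested and DISC1, CFAP53, HAP1 and CCDC13 were too low. In limma 7 of the 20 were called lower and 0 higher, beside 11.9% and 5.07% of all tested genes. Of the 20, 15 had a log2 fold change below 0 (median -0.24), beside 53.7% of all tested genes. The largest fall was that of SPAG5, which encodes the spindle and satellite protein astrin. SPAG5 had 17.1, 18.9 and 17.4 FPKM in control and 4.64, 4.52 and 5.37 FPKM in OFD1-depleted replicates (log2 fold change -1.86, adjusted p = 1.35e-05). NIN, which encodes the microtubule anchoring protein ninein, had 4.47, 4.81 and 4.45 FPKM in control and 2.33, 1.40 and 1.91 FPKM in OFD1-depleted replicates (log2 fold change -1.27, adjusted p = 0.00163). CCDC18 had 2.67, 2.82 and 2.94 FPKM in control and 1.37, 1.10 and 1.19 FPKM in OFD1-depleted replicates (log2 fold change -1.14, adjusted p = 0.00318). In each of these 3 genes every OFD1-depleted value lay under every control value. LRRC49, CEP85, CEP63 and CDK5RAP2 were also called lower, and without control replicate 3 the count of 7 was 4.

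Of 19 genes of dynein, dynactin and their adaptors, which carry satellites towards the centrosome, 18 were tested, 3 were called lower and 0 higher, with a median log2 fold change of 0.08. The 3 are regulators of dynein, and as a share they lie near the 11.9% of all tested genes called lower. Their count was 2 with the replicate block, without trend, with no filter, without any 1 control replicate and without OFD1-depleted replicate 3. With array weights 4 were lower and 3 higher, and so were 2263 and 1693 of the 12025 tested genes. PAFAH1B1, which encodes LIS1, had 27.0, 29.4 and 25.9 FPKM in control and 14.0, 12.1 and 14.0 FPKM in OFD1-depleted replicates (log2 fold change -1.04, limma adjusted p = 0.000296). NDE1 (log2 fold change -1.12, limma adjusted p = 0.000697) and its relative NDEL1 (log2 fold change -0.43, limma adjusted p = 0.0396) fell with it. No tested subunit of dynein or dynactin passed the threshold, and a difference between regulators and subunits was not tested. Among the 18 genes, the groups did not overlap in 3 with lower and 3 with higher values after depletion. Over all tested genes the shares were 22.3% and 13.8%.

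Of 16 kinases, ubiquitin enzymes and autophagy adaptors that act on satellite proteins, 4 were called lower and 0 higher. Over all tested genes the shares were 11.9% and 5.07%. The median log2 fold change of the 16 was -0.03, the same as over all tested genes. In the alternatives 3 or 4 were lower, and 1 was higher under quantile normalization, array weights and the replicate block. Of the 12025 tested genes, these settings called 1093, 1693 and 762 higher. PLK4, the kinase that starts centriole duplication, fell (log2 fold change -1.36, limma adjusted p = 0.00037). USP9X, a deubiquitinase known to stabilize PCM1, had 14.9, 13.8 and 14.1 FPKM in control and 10.7, 6.56 and 10.1 FPKM in OFD1-depleted replicates (log2 fold change -0.67, limma adjusted p = 0.0257). Replicate 2 was the lowest here too, as in 48.2% of all tested genes. The mitotic kinases PLK1 (log2 fold change -1.36, limma adjusted p = 4.8e-05) and CDK1 (-1.12, limma adjusted p = 0.000147) fell too. SPAG5, PLK1, PLK4 and CDK1 are also genes of proliferating cells, and the part of proliferation in the values of the satellite genes was not tested.

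Of the 7 BBSome genes other than BBS4, 1 was called lower and 1 higher, beside 11.9% and 5.07% of all tested genes. The share called lower lies near that of all tested genes. The median log2 fold change of the 7 was 0.13. BBIP1, which encodes the smallest BBSome subunit, had 6.86, 10.3 and 6.54 FPKM in control and 1.72, 2.11 and 2.31 FPKM in OFD1-depleted replicates (log2 fold change -1.87, limma adjusted p = 0.000134). TTC8, which encodes BBS8, moved the other way, with 8.02, 13.0 and 9.95 FPKM in control and 19.3, 15.7 and 18.8 FPKM in OFD1-depleted replicates (log2 fold change 0.81, limma adjusted p = 0.0098). BBS4 stood between them at 0.02.

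**Figure D4:**
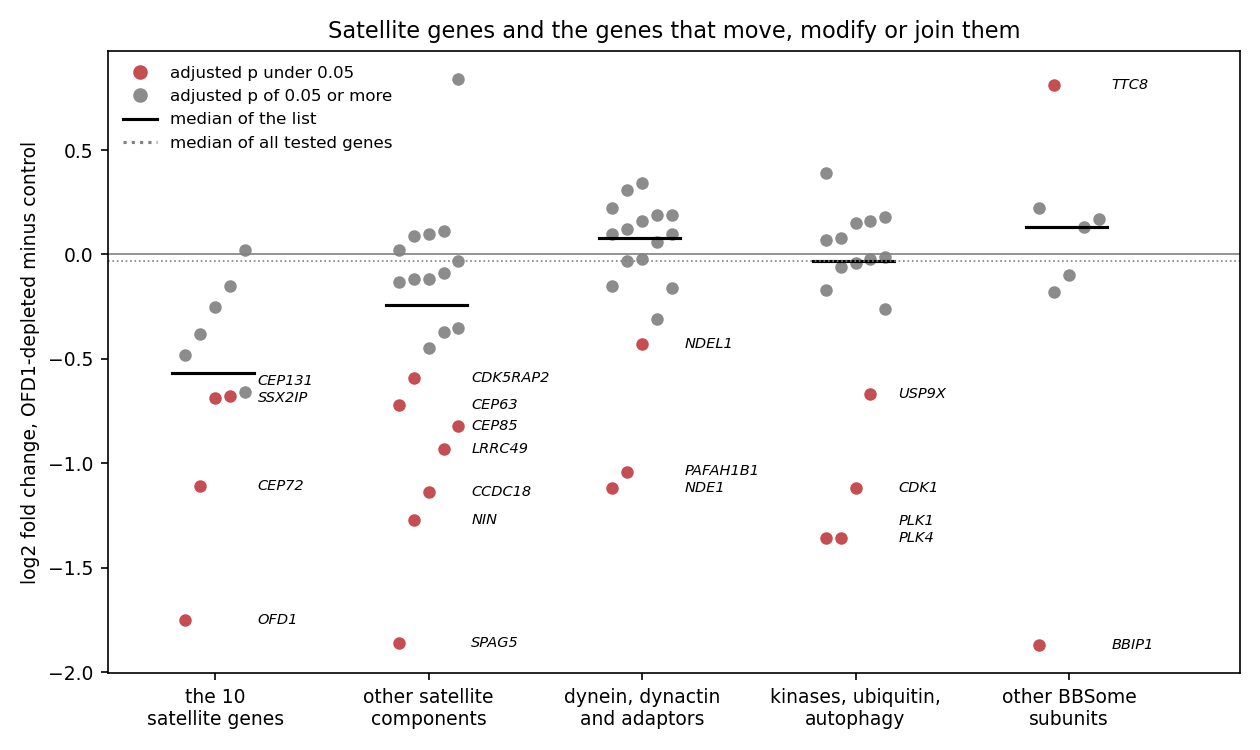
Log2 fold change, OFD1-depleted minus control, of every tested gene in the 10 satellite genes and 4 related lists, in red and named where the limma adjusted p was under 0.05, with a bar at each median and a dotted line at the median of all tested genes (-0.03). The medians are -0.57 for the 10 genes, -0.24 for other satellite components, 0.08 for dynein, dynactin and adaptors, -0.03 for kinases, ubiquitin and autophagy genes and 0.13 for other BBSome subunits.

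The tested genes nearest to OFD1 over the 6 samples were found by the mean absolute difference of log2(FPKM + 0.1), each gene less its own control mean. They were SPAG5 at 0.117, HELLS, which encodes a chromatin remodelling helicase, at 0.122, and PAQR8, which encodes a membrane progestin receptor, at 0.129. HELLS had 10.3, 9.84 and 10.9 FPKM in control and 3.34, 2.46 and 4.21 FPKM in OFD1-depleted replicates. PAQR8 had 2.36, 2.57 and 2.97 FPKM in control and 0.622, 0.579 and 0.861 FPKM in OFD1-depleted replicates. The choice itself makes their values run like those of OFD1.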

How the data were processed

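RNA-seq libraries of 3 control and 3 OFD1-depleted RPE1 samples were grouped by the treatment in their labels. By the study's methods and the submitters' processing notes, the authors mapped read pairs to GRCh38 (Ensembl 94) with HISAT2 2.0.5 and deposited FPKM values per gene from StringTie, whose version and strand setting are not given in the sources used here. The labels describe the extraction of RNA from retinas, while the line and the methods are those of cultured cells. FPKM is already divided by depth and transcript length, so no count test was used, and a rise of abundant transcripts lowers the rest. The 6 samples held no identical pair.

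Genes that averaged 1 FPKM or more were compared with limma 3.58.1 in R 4.3.3 (variance trend, no block) on log2(FPKM + 0.1), which understates changes of low genes. Two-sided p-values were adjusted by Benjamini-Hochberg over all tested genes, and genes under 0.05 were called. Single genes also had an exact permutation test of their FPKM. Depth was estimated from the step between whole multiples of low values in single-exon genes, on which 17.1% to 22.5% of those values lay within 0.02 of a step, and entered no test.

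The 10 genes and the lists were chosen with earlier results of these data known. Of the cell type markers, 1 is not reported here. The genes named are those 10, in each list the called genes, with values for at most 3 falls and 3 rises, the 3 genes nearest to OFD1, cell type markers, and genes that overlap one of the 10, of which those near 0 are given as a group. Genes that start within 1 kb on the other strand were added after values were seen. Promoters came from RefSeq (GRCh38.p14), searched with Python 3.11.15. Alternatives were other pseudocounts, filters and scalings, limma without trend or with array weights, a replicate block, each sample left out, and protein-coding genes alone.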

Additional observations from a re-analysis of the deposited data

How the results depend on the processing

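OFD1 stayed called in all 17 alternatives run for it, at a log2 fold change of -2.02 to -1.18. Of 390 values under 18 alternatives, 327 kept their direction and call or, for counts, lay within 1.5 times the reported value. The 327 include genes not called and counts reported as 0, which had no call to lose. CEP131, SSX2IP and CEP72 lost their call in 6, 8 and 10 of 17 alternatives. No alternative called any of the 10 satellite genes higher. The count of satellite genes called lower, reported as 4, was 1 with no filter on low values, 2 under scaling to the same total after mitochondrially encoded genes were removed, 2 under quantile normalization, and 1 to 3 with a sample left out. It was 0 with a filter at a mean of 5 FPKM, where 4 of the 10 genes, without OFD1, were tested. The cause was not tested for the other settings. The sign of BBS4 turned under scaling to the same total (-0.13), the same without mitochondrially encoded genes (-0.04) and array weights (-0.03), and ranged from -0.07 to 0.08 with a sample left out. The sign of MIB1 turned with array weights (0.04), and ranged from -0.33 to 0.11 with a sample left out. Neither was called in any of these fits.

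Over all tested genes, 1429 were lower and 610 higher as reported, 1988 and 268 under scaling to the same total, 1311 and 1093 under quantile normalization, 2263 and 1693 with array weights, and 823 and 260 with no filter. Scaling to the same total moved the median log2 fold change by -0.145 and quantile normalization by 0.107. With a sample left out, 867 to 1741 genes were lower and 244 to 1077 higher. Same-numbered samples deviated together with correlations of 0.0579, 0.0481 and 0.011, so the numbers were not taken to pair the samples, and not every sample correlated best with its own number. The replicate block called 5 satellite genes lower, adding CCDC14, and 1534 genes lower and 762 higher. FPKM holds no counts, so counting error behind low values such as those of CEP72 is not known.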
